A study of Mus musculus with 6 samples.

Results

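Sperm tails carry outer dense fibres along the axoneme, and a coupling apparatus at the neck joins the tail to the nucleus. The genes described here, 10 of the 34144 gene rows of the deposited tables, belong to these structures and were taken by symbol: Odf1, Odf2, Odf3, Odf4, Oaz3, Spag4, Spata6, Spatc1, Pmfbp1 and Sun5. They were described at the gene level and through the 70 transcripts that carry these symbols, of which 65 had a count in at least 1 library. All 10 genes passed the filter on low counts.

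RNA came from testes of C57Bl/6J mice at 3 months of age, with 3 wild-type and 3 Nsun7-/- mice and 1 library for each mouse. The testes had been freed of their capsule, so the RNA was that of seminiferous tubules and whatever else stayed with them. Ribosomal and globin RNA was depleted before library preparation. The labels give the genotype as a knockout and do not describe the allele, and both groups share strain and age. The series is titled for the place of Nsun7, as an RNA-binding protein, in the layout of the tail's longitudinal columns, and the comparison asks whether RNA of tail and neck genes differed between the genotypes.

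The outer dense fibres form late in spermatid development, when transcription has largely stopped and stored messages are translated. The coupling apparatus is built around the centrioles and is fixed to the nuclear envelope through SUN-domain proteins. Loss of several of its proteins in mice gives sperm whose heads and tails come apart.

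Libraries held between 23480448 and 28558865 counts. Nsun7 itself was measured at 36.6, 35.7 and 37.2 CPM (counts scaled to an equal library total after TMM normalization) in the wild-type mice and at 18.0, 17.8 and 25.2 in the knockouts, a log2 fold change of -0.84 (SE 0.15, adjusted p = 0.016 by edgeR's quasi-likelihood test). Every knockout lay below every wild type, and all 3 knockouts still held RNA of the gene. The call was lost when any 1 wild-type mouse or knockout mouse 2 was left out (adjusted p from 0.0556 to 0.093). It was also lost with limma on deposited TPM (log2 fold change -0.46, adjusted p = 0.401). On TPM centred on each library's median the same held (log2 fold change -0.75, adjusted p = 0.106). Markers of spermatogonia, spermatocytes, round and elongating spermatids, Sertoli, Leydig, peritubular and macrophage cells were all above 0 in each library. Of the 8 Leydig cell markers 2 were higher in the knockout, Hsd3b1 and Hsd17b3 (the latter not when wild-type mouse 1 or 2 or knockout mouse 2 was left out, adjusted p 0.0853 to 0.143, and not on deposited TPM, adjusted p 0.0541 and 0.0628). All 8 lay above 0, with a median log2 fold change of 0.70, and 4 had an unadjusted p under 0.05. Of the 9 elongating spermatid markers 0 passed, 8 lay below 0 and 3 had an unadjusted p under 0.05, with a median of -0.25. Over all tested genes 8.39% had such a p. Of the 7 spermatogonium markers 0 passed and 3 had such a p, with a median of -0.15. Round spermatid, spermatocyte and Sertoli cell markers gave 0 calls, with medians of 0.04, -0.06 and -0.11. In each of these lists 1 marker had such a p. None of the 6 peritubular or 6 macrophage markers passed, with all of the first below 0 (median -0.25) and all of the second above (median 0.25). Such a p was found for 2 peritubular and 0 macrophage markers. The part of these marker levels in the results was not tested. In bulk RNA, fewer cells of a type and less RNA per cell cannot be told apart. The share of counts taken by Rmrp, an abundant small non-coding RNA, was 4.85%, 2.48% and 1.55% in wild-type mice 1 to 3 and 1.76%, 1.21% and 0.985% in the knockouts, and the mean fragment length implied by the effective lengths was 154 bases in wild-type mouse 1 and 168 to 179 bases in the others.

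None of the 10 genes passed the test between genotypes. At an adjusted p of 0.05, 0 of the 10 were called by edgeR, against 0.567% of the 21002 genes tested (0.233% higher and 0.333% lower in the knockout). Without adjustment 0 of the 10 had a p under 0.05, where 8.39% of all tested genes did. DESeq2 and limma voom also called 0. The genotypes overlapped in all 10, while they did not overlap in 14.3% of all tested genes (7.38% higher and 6.95% lower in the knockout). Log2 fold changes (knockout over wild type) lay above 0 in 5 genes and below 0 in 5, between -0.17 and 0.31, with a median of 0.00078 against 0.015 over all tested genes. The p-values set each genotype difference against the spread between these mice, an estimate that edgeR moderates across all tested genes. On deposited TPM all 10 lay above 0, with a median of 0.31 where that of all tested genes was 0.24. With log2 TPM centred on each library's median, all 10 had the sign of the CPM fit. Their median was then 0.0262, against -0.0481 over all tested genes.

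**Figure D1:**
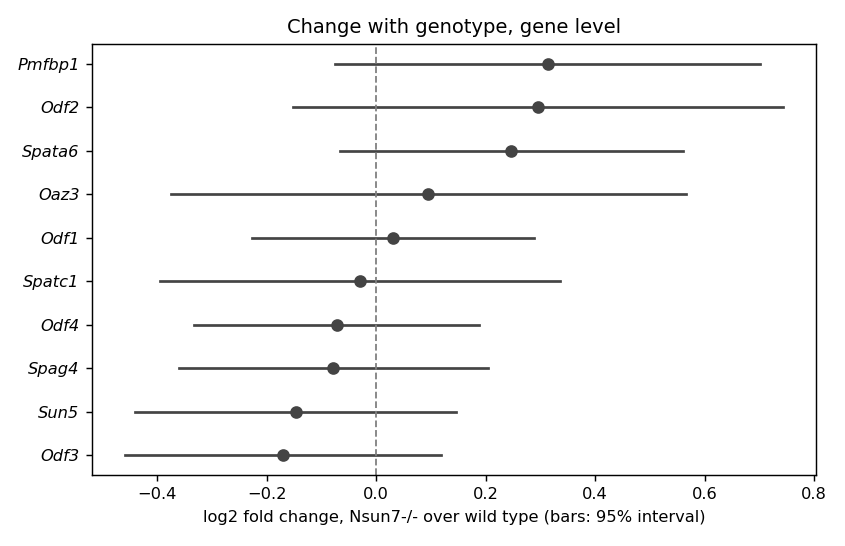
Log2 fold change of each gene, Nsun7-/- over wild type (points), with the 95% interval of edgeR's quasi-likelihood fit (bars, 3 mice per genotype). Each interval crosses 0, from Odf3 at -0.17 to Pmfbp1 at 0.31.

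The fibre proteins come first. Odf1 encodes a cysteine-rich protein related to small heat shock proteins and is a main constituent of the fibres. Its RNA was at 258, 276 and 247 CPM in the wild-type mice and at 287, 269 and 241 CPM in the knockouts. The knockouts held both the highest and the lowest library, and the groups overlapped over most of their range. The log2 fold change was 0.03 (SE 0.12, 95% interval -0.23 to 0.29, adjusted p = 0.950). Odf1 also varied least of the 10, with the highest library 1.19 times the lowest, where the median over tested genes was 1.52.

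Odf2 encodes a fibre protein of the tail that also serves at the centriole, where a longer form, cenexin, belongs to the distal and subdistal appendages. Its level was 552, 567 and 812 CPM in the wild type and 567, 821 and 981 CPM in the knockouts. Wild-type mouse 3 and knockouts 2 and 3 were high, the other 3 libraries were low, and the low group held mice of both genotypes. The log2 fold change was 0.30 (SE 0.20, 95% interval -0.15 to 0.74, adjusted p = 0.684).

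Odf3 encodes a protein of the SHIPPO family first found in sperm tails. It was at 164, 150.1 and 129.8 CPM in the wild type and at 150.2, 131 and 113 CPM in the knockouts. The lowest library was knockout mouse 3, and the other 2 knockouts lay within the wild-type range. This gave a log2 fold change of -0.17 (SE 0.13, 95% interval -0.46 to 0.12, adjusted p = 0.713), and without knockout mouse 3 it was -0.0787.

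Odf4 encodes a membrane protein of the sperm tail. Levels of 159, 183 and 172 CPM in the wild type stood beside 180.4, 163 and 146 CPM in the knockouts. Knockout mouse 3 was lowest, and the other 2 knockouts lay inside the wild-type range. Knockout over wild type came to a log2 fold change of -0.07 (SE 0.12, 95% interval -0.33 to 0.19, adjusted p = 0.867), and without knockout mouse 3 it was -0.00318.

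Oaz3 encodes the antizyme of spermatids, which binds ornithine decarboxylase and is known from mice in which its loss separates heads from tails. It was at 511, 612 and 859 CPM in the wild type and 621, 918 and 577 CPM in the knockouts. Wild-type mouse 3 and knockout mouse 2 stood above the other 4 libraries, and the lowest library was a wild type. The log2 fold change was 0.09 (SE 0.21, 95% interval -0.38 to 0.57, adjusted p = 0.905), and its highest library was 1.80 times its lowest, as wide as for Pmfbp1 and wider than for the other 8 genes.

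At the nuclear side of the neck, Sun5 and Spag4 encode SUN-domain proteins of the spermatid nuclear envelope. Sun5 is known to anchor the coupling apparatus, and Spag4 to take part in the shaping of the sperm head. Sun5 was at 51.4, 61.8 and 43.7 CPM in the wild type and 49.96, 47.7 and 44.0 CPM in the knockouts. The wild-type mice spanned the whole range, and the 3 knockouts lay within it. The log2 fold change of Sun5 was -0.15 (SE 0.14, 95% interval -0.44 to 0.15, adjusted p = 0.749), and without wild-type mouse 2, the highest library, it was -0.0172.

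Spag4 was at 188, 200.3 and 172 CPM in the wild type and at 200.2, 182 and 149 CPM in the knockouts. Knockout mouse 3 was lowest, and the other 5 libraries were interleaved. Its log2 fold change was -0.08 (SE 0.13, 95% interval -0.36 to 0.20, adjusted p = 0.866).

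Spata6, Pmfbp1 and Spatc1 encode proteins of the connecting piece. Spata6 is required for its assembly, Pmfbp1 lies between the nuclear envelope side and the tail side, and Spatc1 encodes speriolin, a centrosomal protein. Spata6 was at 152, 167 and 171 CPM in the wild type and 157, 186 and 238 CPM in the knockouts. Knockouts 2 and 3 were the highest libraries, and knockout mouse 1 lay among the wild-type mice. Its log2 fold change was 0.25 (SE 0.15, 95% interval -0.07 to 0.56, adjusted p = 0.656).

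Pmfbp1 showed the log2 fold change farthest from 0 among the 10, at 0.31 (SE 0.18, 95% interval -0.07 to 0.70, adjusted p = 0.650). Its levels were 30.0, 31.1 and 37.5 CPM in the wild type and 31.2, 37.5 and 53.8 CPM in the knockouts. Knockout mouse 3 was highest, and the other 2 knockouts lay within the wild-type range. Without knockout mouse 3 the log2 fold change was 0.06, and without it those of Odf2 and Spata6 were 0.10 and 0.06.

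Spatc1 was at 152, 165 and 211 CPM in the wild type and at 152, 219.7 and 146 CPM in the knockouts. As for Oaz3, wild-type mouse 3 and knockout mouse 2 were the 2 highest libraries. Its log2 fold change was -0.03 (SE 0.17, 95% interval -0.39 to 0.34, adjusted p = 0.968).

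**Figure D2:**
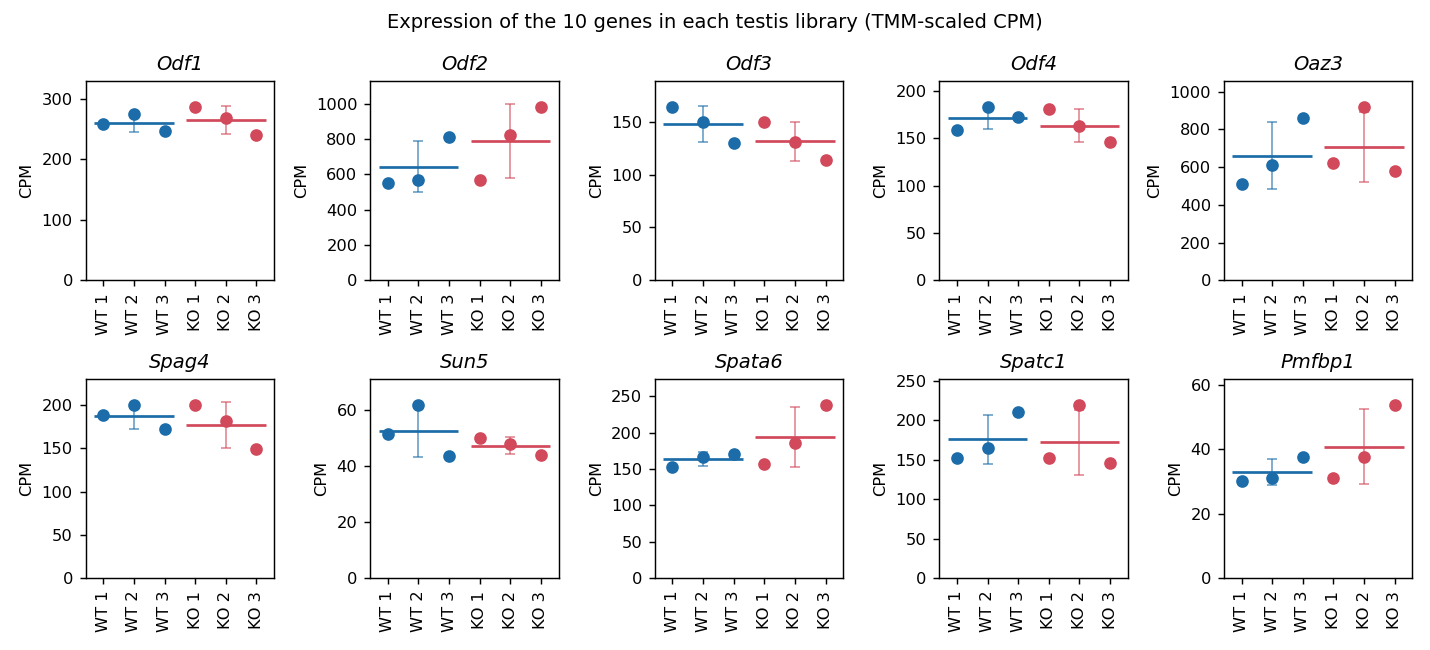
CPM of each gene in each library, one panel per gene, for wild-type (WT) and Nsun7-/- (KO) mice (points, 3 per genotype, lines and bars giving mean and SD). Wild-type and knockout points overlap in all 10 panels, and Odf2, Spata6 and Pmfbp1 are highest in knockout mouse 3.

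In knockout mouse 3 the genes differed by the length of their transcripts. On the log2 CPM scale, the 3 genes whose most abundant transcript exceeds 2000 bases were above the median of the other 5 libraries there, Odf2 (2376 bases) by 0.79, Pmfbp1 (3396 bases) by 0.79 and Spata6 (2466 bases) by 0.51. All 3 were highest in that library. The other 7, with transcripts of 935 to 1605 bases, deviated by -0.11 (Oaz3) to -0.40 (Odf3), and 5 of them were lowest there. Over all tested genes 31.2% were highest in knockout mouse 3, 36.3% of those with a main transcript over 2000 bases and 24.0% of the shorter ones. Lowest there were 26.0% of the longer and 33.7% of the shorter genes. The median deviation was 0.07 for the longer and -0.06 for the shorter genes. Rmrp took its lowest share of counts in the same library, whose fragment length of 175.5 bases was within the range of the others, and the part of library composition in this pattern was not tested. Odf2, Spata6 and Pmfbp1 were lowest in wild-type mouse 1 and highest in knockout mouse 3. Leaving out both mice therefore draws their log2 fold changes toward 0, and these were then 0.01, 0.02 and 0.000813. Such values cannot show how far the rises rest on those libraries.

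**Figure D3:**
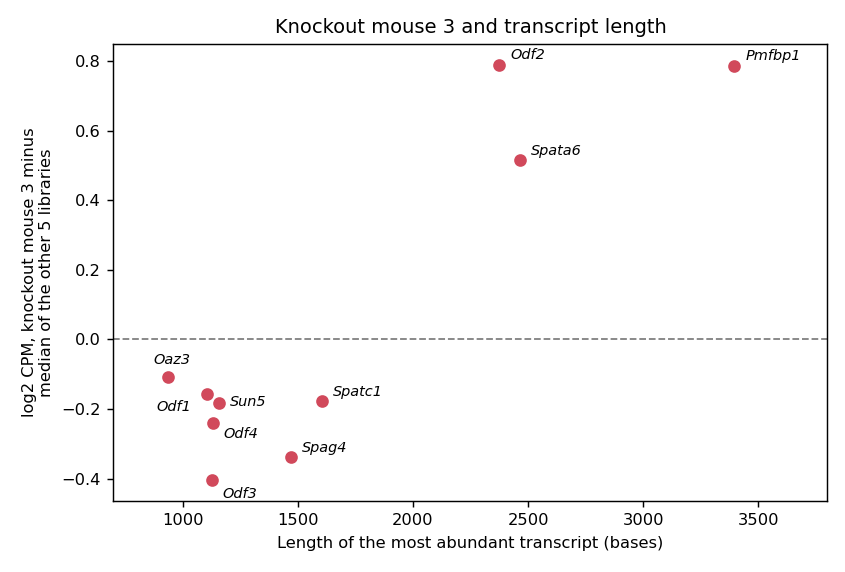
Deviation of knockout mouse 3 from the median of the other 5 libraries (log2 CPM, vertical axis) against the length of the most abundant transcript in bases (horizontal axis), 1 point per gene. The 3 genes above 2000 bases lie at 0.51 or higher, and the other 7 lie below 0.

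Oaz3 and Spatc1 shared the order in which wild-type mouse 3 and knockout mouse 2 stood highest, as did 5.15% of all tested genes. The summed CPM of the elongating spermatid markers was also highest in those libraries, at 10241 in wild-type mouse 3 and 9575 in knockout mouse 2, against 6726 to 8489 in the others. Its part in the levels of Oaz3 and Spatc1 was not tested.

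Per kilobase of effective length the genes spanned a wide range of levels. As means over the 6 libraries of CPM per kilobase, Oaz3 stood at 849 ± 215 (SD, n = 6), Odf2 at 507 ± 87.6 and Odf1 at 281 ± 19.1. Odf4 followed at 203 ± 18.7, Spag4 at 171 ± 23.2, Spata6 at 158 ± 21.2, Odf3 at 139.8 ± 18.0 and Spatc1 at 120.1 ± 22.9. Sun5 at 64.6 ± 8.24 and Pmfbp1 at 11.4 ± 2.79 were lowest. Libraries of neighbouring genes did not overlap between Odf2 and Odf1, between Odf1 and Odf4, between Spatc1 and Sun5, or between Sun5 and Pmfbp1. The ranges of Oaz3 and Odf2 overlapped, although Oaz3 was above Odf2 in 6 of 6 libraries. The 5 genes from Odf4 to Spatc1 overlapped each with the next.

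Transcript choice within the genes was examined next. Odf1 consisted of a single transcript, Odf1-201, on chromosome 15. Pmfbp1-201 on chromosome 8 made up 97.9% of its gene's counts, Odf3-201 on chromosome 7 87.3% and Oaz3-204 on chromosome 3 87.1%. Sun5-201 on chromosome 2 held 84.6%, Spatc1-201 on chromosome 15 72.8%, Spata6-201 on chromosome 4 71.0% and Spag4-201 on chromosome 2 54.0%. Odf4 on chromosome 11 was led by Odf4-203 with 68.3%, and Odf2 on chromosome 2 by Odf2-201 with 38.5%. Odf2 was the most divided, with 25 annotated transcripts, 23 of them with a count.

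None of the 56 member transcripts tested was called by edgeR, against a background of 0.0272% of 58773 transcripts, and limma voom called 0. Without adjustment 1 of them had p under 0.05, where 4.76% of all tested transcripts did. That transcript, Spata6-203, is named because of its value: its estimated counts were 74.5, 93.6 and 81.0 in the wild type and 136, 228 and 266 in the knockouts, with no overlap. Its log2 fold change was 1.14 (adjusted p = 0.429), and it held 2.07% ± 0.21 of the gene's counts in the wild type and 3.90% ± 0.60 in the knockouts (SD, n = 3). Isoform use, the share of a transcript within its gene, was called in 0 of the 9 genes with more than 1 tested transcript by edgeR, against 0.975% of 12104 genes. In the same test 0 of the 9 had an unadjusted p under 0.05, and limma voom called 0.

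The SUN-domain genes each had a second sizeable transcript. Spag4-201 held 50.7%, 52.9% and 56.8% of Spag4 counts in the wild type and 55.9%, 55.8% and 51.6% in the knockouts, and Spag4-206, of 747 bases, held 25.1% on average. The genotypes overlapped in both transcripts. Sun5-203, a transcript of 519 bases annotated as processed and without a coding sequence, held 15.1%, 15.4% and 16.2% in the wild type and 13.5%, 14.9% and 14.2% in the knockouts. Each knockout was below each wild type, by shares that differed little, and the change in use had an adjusted p of 1. Spata6-201 held 62.3%, 75.0% and 74.0% in the wild type and 71.3%, 73.1% and 70.2% in the knockouts, where wild-type mouse 1 was lowest and the other 5 libraries lay close together.

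Odf2 transcripts differ in several places, among them the start of the coding sequence, a stretch of 57 coding bases further on, and the 3′ end. The 57 bases and the 3′ end are shown because they alter the encoded protein and are the differences whose use is given here. In the first line capitals mark the added bases of Odf2-211 with 12 shared bases on either side. The next lines give the short 3′ end of Odf2-201, with its stop codon in capitals, and the extended end of Odf2-206, which goes on coding after the first 12 bases that both share and is the kind of end known from cenexin.
Odf2-211: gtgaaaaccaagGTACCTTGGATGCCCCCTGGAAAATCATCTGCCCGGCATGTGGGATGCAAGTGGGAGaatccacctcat
Odf2-201: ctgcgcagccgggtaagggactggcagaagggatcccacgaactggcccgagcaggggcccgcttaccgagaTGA
Odf2-206: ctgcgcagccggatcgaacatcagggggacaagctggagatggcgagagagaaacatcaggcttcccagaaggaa

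The coding sequence, stop included, ran to 1917 bases in Odf2-201 and Odf2-209, to 2106 in Odf2-211 and to 2481 in Odf2-206. Odf2-201 made up 37.2%, 36.2% and 39.3% of the gene's counts in the wild type and 38.1%, 37.8% and 42.1% in the knockouts. Knockout mouse 3 was highest and wild-type mouse 2 lowest. Odf2-211 ranged from 17.4% to 21.3% and Odf2-209 from 11.8% to 14.8%, each with its extremes spread over both genotypes.

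Molecules are estimated counts per effective length. Of the 25 Odf2 transcripts 18 hold the exon with or without the 57 added bases, and among the molecules of those 18, the 9 transcripts with the bases made up 30.3%, 30.6% and 28.3% in the wild type and 32.8%, 31.6% and 27.3% in the knockouts. The knockouts held both extremes. The means were 29.7% ± 1.25 and 30.6% ± 2.90 (SD, n = 3, two-sided exact permutation p = 0.6). The 3′ end could be assigned for 11 transcripts, and among their molecules the 5 with the extended end made up 9.08%, 8.98% and 6.26% in the wild type and 8.64%, 6.62% and 6.49% in the knockouts. Here wild-type mouse 3 was lowest, and the 2 other wild types were above all knockouts. The means were 8.11% ± 1.60 and 7.25% ± 1.20 (SD, n = 3, exact permutation p = 0.5). For 3 against 3 mice the smallest p this test can give is 0.1, so no share could pass 0.05.

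One further Odf2 transcript, Odf2-207, is named because its values were seen to be irregular. Its estimated counts were 0.0196, 193 and 630 in the wild type and 39.8, 1022 and 1591 in the knockouts. It was the 1 of 55 transcripts tested for use with an unadjusted p under 0.05, against 2.57% of all such transcripts, with a change in use of 1.22 on the log2 scale and an adjusted p of 1. The genotypes overlapped, with the lowest library a wild type and the highest a knockout. Odf2 transcripts share exons, and kallisto divides reads of shared exons among them by estimate.

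Odf4 was mostly present in a form with 22 added bases. They are shown for Odf4-203 with 12 shared bases on either side, and the capitals mark an in-frame stop codon inside the added stretch.
Odf4-203: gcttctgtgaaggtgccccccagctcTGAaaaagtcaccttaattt

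The coding sequence of Odf4-203 ended at 537 bases, against 873 bases in Odf4-201, and the annotation lists Odf4-203 under nonsense-mediated decay. The added bases are also in Odf4-202, which is annotated as protein-coding with 534 coding bases and made up 13.1% of the gene's counts on average. Among the molecules of 3 of the 4 Odf4 transcripts (Odf4-204, with 4.28% of the counts, has neither of the 2 annotated forms of that exon), the added bases were present in 90.2%, 88.0% and 85.9% in the wild type and 83.0%, 83.9% and 86.6% in the knockouts. Knockout mouse 3 lay between wild-type mice 2 and 3, so the groups overlapped. The means were 88.0% ± 2.15 and 84.5% ± 1.90 (SD, n = 3, exact permutation p = 0.2). Odf4-201, the transcript with the long coding sequence, made up 12.4% ± 2.30 of the gene's counts in the wild type and 16.1% ± 2.00 in the knockouts, with a log2 fold change of 0.30 (adjusted p = 0.932).

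Spatc1-202 carries 95 added bases that bring a stop codon into frame soon after them. The stretch is shown from the first added base to that stop, in capitals.
Spatc1-202: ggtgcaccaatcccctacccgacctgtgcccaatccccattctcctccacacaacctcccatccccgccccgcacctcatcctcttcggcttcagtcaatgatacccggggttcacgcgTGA

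The coding sequence was 1443 bases in Spatc1-201 and 984 in Spatc1-202, which is also annotated under nonsense-mediated decay. Molecules with the added bases made up 29.6%, 26.2% and 25.5% of both Spatc1 transcripts together in the wild type and 23.5%, 27.0% and 26.4% in the knockouts. The highest library was a wild type and the lowest a knockout, and between them the other knockouts lay above the other wild types. The means were 27.1% ± 2.20 and 25.6% ± 1.88 (SD, n = 3, exact permutation p = 0.6). Over the 4 shares tested, each adjusted p was 0.6 (Benjamini-Hochberg).

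**Figure D4:**
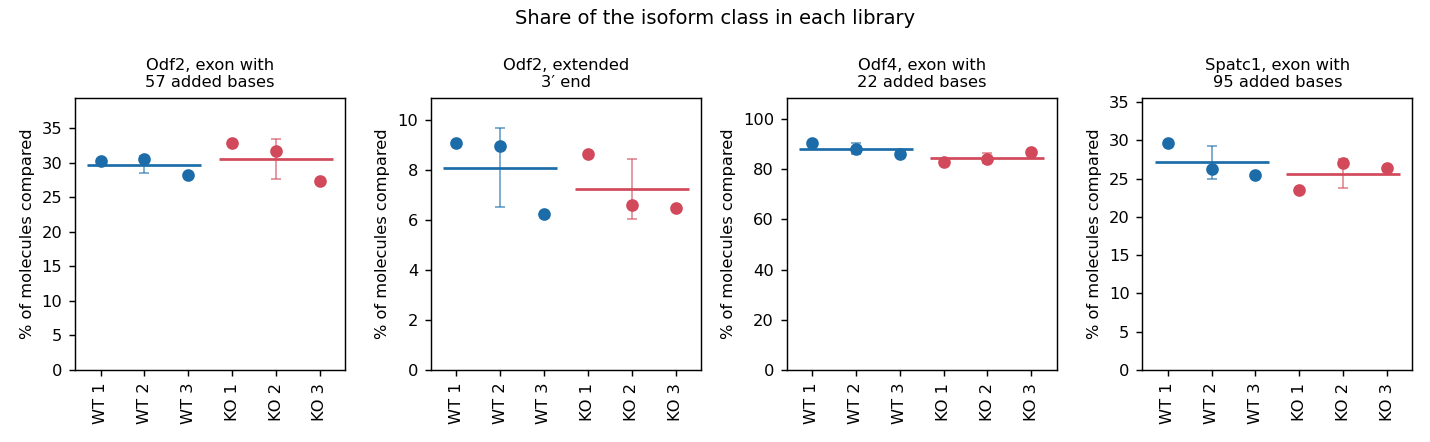
Percent of molecules carrying each alternative stretch of Odf2, Odf4 and Spatc1, among the transcripts that hold either form (18 and 11 for Odf2, 3 for Odf4, 2 for Spatc1), in each library, for wild-type (WT) and Nsun7-/- (KO) mice (points, 3 per genotype, lines and bars giving mean and SD). The shares overlap between genotypes in all 4 panels, with Odf4 the highest at 83.0% to 90.2%.

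Antizymes are made through a programmed shift of the reading frame, and the place where this happens in Oaz3 is shown from both of its main transcripts. The annotated sequence of Oaz3-204, as a transcript and not only as a coding sequence, leaves out 1 base. That base stands in capitals in Oaz3-202, where it is kept.
Oaz3-204: tgcctccagtgctccgagtccctaggaggc
Oaz3-202: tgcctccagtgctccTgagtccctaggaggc

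In Oaz3-202 that base and the following ones read TGA, after 86 codons of the coding sequence as annotated in Oaz3-204. Oaz3-202 is a retained-intron transcript and held 13.3%, 13.4% and 11.3% of Oaz3 counts in the wild type and 11.9%, 10.9% and 12.5% in the knockouts. The genotypes overlapped, and its log2 fold change was -0.01 (adjusted p = 0.996). The frame of translation itself is not measured by RNA counts. Reads that keep the base match Oaz3-202 and not Oaz3-204 at that site. Whether RNA without the base exists, and the part of the site in these shares, was not tested.

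Among genes of the same structures, the other fibre and ODF-family genes gave 0 calls of 14 tested. The median log2 fold change was -0.05, with 5 above 0 and 9 below. Klc3, a kinesin light chain that binds outer dense fibres, was at 55.8, 51.1 and 57.9 CPM in the wild type and 39.3, 38.9 and 26.1 CPM in the knockouts. All 3 knockouts were below all 3 wild types, with a log2 fold change of -0.66 (SE 0.15, adjusted p = 0.0917), which missed the threshold. DESeq2 gave Klc3 an adjusted p of 0.00989, on the other side of it, and edgeR did so without knockout mouse 1 (0.0172) or knockout mouse 3 (0.0452). Vdac3, a mitochondrial and fibre-associated porin, was at a log2 fold change of 0.36 (adjusted p = 0.613).

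Of 18 other head-tail coupling genes 0 were called, with 8 above 0 and 10 below and a median of -0.03. Hook1, which is mutated in mice with abnormal sperm heads, stood at 0.28 (adjusted p = 0.637) and Prss21, a sperm protease, at -0.17 (adjusted p = 0.707). The nuclear envelope genes gave 0 calls of 10, with 9 below 0 and a median of -0.08. Lmna, the A-type lamin, stood at -0.33 (adjusted p = 0.563) and Sun2 at -0.26 (adjusted p = 0.630).

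The centriole appendage genes, which act beside Odf2 at somatic centrioles, gave 0 calls of 11, with a median of -0.07. Ccdc120 stood at -0.24 (adjusted p = 0.689) and Cep89 at 0.19 (adjusted p = 0.701). The polyamine and antizyme genes, to which Oaz3 belongs by function, gave 0 calls of 12, with a median of 0.07. Amd1, the decarboxylase that supplies the aminopropyl group of polyamines, was at 41.5, 42.0 and 45.2 CPM in the wild type and 49.3, 55.0 and 69.3 CPM in the knockouts. The genotypes did not overlap, and the log2 fold change was 0.43 (adjusted p = 0.323). Sat1, which acetylates polyamines, stood at 0.32 (adjusted p = 0.665).

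Several of the genes overlap others on the opposite strand in the annotation, Oaz3 with Tdrkh and Mrpl9, Odf3 with Gm45785, Spatc1 with Mirt2 and Spata6 with pseudogenes. Whether the counting used strand is not given in the sources used here, so reads of exon bases that such pairs share may be mixed. The overlaps are of whole gene spans, and overlap of exons was not examined.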

How the data were processed

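Total RNA of 6 testes, 3 per genotype, was depleted of ribosomal and globin RNA, per the labels' protocols. The submitters' processing notes name kallisto 0.50.1 and the build mm39. Strand setting, annotation release and the joining of transcripts to symbols: not given in the sources used here. Deposited by the authors were per-library transcript tables of estimated counts, effective lengths and TPM, and gene tables of estimated counts (whole numbers) and TPM, per the file headers. The deposited gene counts matched the transcript sums to within 1 count for 96.6% to 96.8% of 31114 genes and for all 10 genes described.

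Gene counts and rounded transcript estimates were analysed with edgeR 4.0.16 in R 4.3.3: TMM normalization, filterByExpr (minimum count 10, minimum total 15) and the robust quasi-likelihood test with genotype as the sole term, adjusted by Benjamini-Hochberg over all features at 0.05. Of 30388 genes with any count, 21002 passed the filter. Isoform use was tested with edgeR on the same transcript counts. Each SE came from dividing the log2 fold change by the root of the test's F value. Shares of alternative stretches were compared by two-sided exact permutation tests. limma 3.58.1 and DESeq2 1.42.0 served as alternatives, as did TPM on a log2 scale with a pseudocount of 1 or 0.1.

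Named were all 10 genes, Nsun7, the 2 genes of smallest p in each other list and transcripts with at least 10% of a gene's counts. Others are said to be named for their values. The genes and lists were chosen with earlier results of these data known. On simulated counts (20696 genes) the gene test recovered 30.6% of changes of 0.585, 79.2% of 1 and 98% of 2 on the log2 scale. Of its calls 5.59% were false. For the test of isoform use, on simulated counts of 11629 genes, the most abundant transcript of a changed gene was lowered and the next one raised. Only genes with a well-counted second transcript were changed. The test recovered 32% of genes where each of these transcripts moved by 1 on the log2 scale, and 94% where each moved by 2. Of its calls 0% were false.

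Transcript names, structures and sequences came from GENCODE M21, which annotates GRCm38. It matched 117939 of 126126 transcripts (93.5%). Coordinates are left out, since that build differs from mm39.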

Additional observations from a re-analysis of the deposited data

How the results depend on the processing

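The number of genes called among the 10 stayed at 0 under every alternative tried. On deposited TPM (pseudocount 1, then 0.1), the median of all tested genes shifted to 0.24 and 0.30 and that of the 10 genes to 0.31 and 0.32. Signs turned for Odf3 (0.14, 0.14), Odf4 (0.24, 0.24), Spag4 (0.19, 0.20), Spatc1 (0.28, 0.28), Sun5 (0.17, 0.17), Prss21 (0.12, 0.12), Sun2 (0.0731, 0.0742), the spermatocyte marker Piwil1 (0.12, 0.12) and the Sertoli cell marker Gata1 (0.0328, 0.0342). On TPM centred on each library's median these signs were those of the main fit, and the median of the 10 was 0.0262. With wild-type mouse 1 and knockout mouse 3 (the highest and lowest libraries of Odf3) both left out, Odf3 was at 0.00657 and Spag4 at 0.038. With limma voom, isoform use turned for Odf2-209 (0.0603) and Odf2-211 (0.0982). Leaving out 1 mouse at a time, the median of the 10 ran from -0.0857 to 0.0601, Odf1 from -0.0369 to 0.0906, Odf2 from 0.10 to 0.50, Odf3 from -0.29 to -0.0787, Odf4 from -0.16 to -0.00318, Sun5 from -0.26 to -0.0172, Spata6 from 0.0639 to 0.37, Pmfbp1 from 0.0564 to 0.46, Oaz3 from -0.14 to 0.33, Spag4 from -0.19 to 0.0268 and Spatc1 from -0.24 to 0.12. Among transcripts, the same ranges were -0.0529 to 0.10 (Odf1-201), -0.21 to 0.15 (Spatc1-201), -0.36 to 0.0268 (Spatc1-202), -0.26 to 0.0134 (Sun5-201), -0.18 to 0.10 (Spag4-201), -0.18 to 0.12 (Oaz3-202) and -0.15 to 0.35 (Oaz3-204). For isoform use they were -0.12 to 0.0339 (Odf2-209), -0.0986 to 0.0607 (Odf2-211), -0.0596 to 0.0644 (Spata6-201) and -0.0123 to 0.00779 (Pmfbp1-201). The causes were not tested. Of the other fibre genes, 1 (Klc3) was called by DESeq2, without a filter and with the replicate block, and 0 to 1 when 1 mouse was left out. Whether replicate numbers pair the mice is not given in the sample titles. Deviations of same-numbered mice correlated at 0.177, -0.00476 and 0.199 over genes, and those of other pairs at -0.235 to 0.0565. Wild-type mouse 2 correlated best with another number. The replicate block called 331 genes in place of 119, still 0 of the 10, and isoform use in 1 gene, Odf2 (adjusted p = 0.036), and within it the use of Odf2-207 (log2 change 1.78, adjusted p = 0.00872). Among the genes it called in edgeR was the round spermatid marker Pgk2 (log2 fold change 0.51, adjusted p = 0.012). All genes called numbered 213 with DESeq2, 180 without a filter, 62 and 60 on TPM, 63 on centred TPM, and 67 to 166 without 1 mouse. With 3 mice a genotype, gene changes well under 2-fold were often not detectable. Nor were many isoform changes in which a gene's main transcript fell 2-fold and the next one rose 2-fold.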

Other observations

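Of the cell type markers, the pair with the smallest p in each list gave the following log2 fold changes between genotypes, all by edgeR's quasi-likelihood test. Among elongating spermatid markers Prm3, a protamine-family gene, stood at -0.53 (adjusted p = 0.479) and Tnp2, a transition protein, at -0.39 (adjusted p = 0.542). The round spermatid markers Spaca1, of the acrosome, and Pgk2, a glycolytic enzyme of germ cells, stood at 0.33 (adjusted p = 0.591) and 0.51 (adjusted p = 0.596). In spermatocytes H1f6, the testis linker histone, was at -0.44 (adjusted p = 0.461) and Piwil1, a piRNA-binding protein, at -0.21 (adjusted p = 0.656). Among spermatogonial markers Stra8, which marks entry into meiosis, was at -0.46 (adjusted p = 0.325) and Gfra1, a receptor of stem spermatogonia, at 0.52 (adjusted p = 0.404).

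The Sertoli cell markers Amh and Gata1 stood at -0.44 (adjusted p = 0.578) and -0.29 (adjusted p = 0.641). Leydig cells gave the markers that passed, Hsd3b1 at 1.17 (adjusted p = 0.00345) and Hsd17b3 at 0.80 (adjusted p = 0.0182), both enzymes of steroid synthesis. Des and Tagln, of peritubular muscle-like cells, were at -0.39 (adjusted p = 0.485) and -0.35 (adjusted p = 0.512). The macrophage markers Mrc1 and Lyz2 were at 0.24 (adjusted p = 0.637) and 0.73 (adjusted p = 0.655). Apart from those of Hsd3b1 and Hsd17b3, none of these values passed the threshold.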
